A study of Mus musculus with 12 samples.

Results

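The genes that write, copy, erase and protect DNA methylation were followed through the last stages of mouse preimplantation development. They were 10 genes taken by name: Dnmt1, Dnmt3a, Dnmt3b, Dnmt3l, Uhrf1, Tet1, Tet2, Tet3, Zfp57 and Trim28. All 10 were found among the 43472 genes of the deposited table, and all 10 were among the 10751 genes that passed a filter on low values. Levels are given in CPM, the reads of a gene for every 1000000 reads of its library.

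CD1 zygotes, from an outbred stock, received GFP mRNA together with an siRNA against Tdgf1 or with a negative control siRNA, so every group carries an injection and GFP mRNA. Tdgf1 is the gene of Cripto, which helps Nodal ligands signal at the cell surface, and an siRNA lowers its RNA without removing the gene. RNA-seq libraries were made from embryos of 6 groups, Tdgf1 siRNA and control siRNA embryos as morulae, as early blastocysts and as late blastocysts, with 2 libraries each (n = 2), numbered 1 and 2 in the labels. How many embryos went into a library is not stated, and the labels do not say whether the 2 libraries of a group came from separate collections. P-values therefore speak only of the spread between the samples at hand, and that spread may be technical.

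Methyl groups sit mainly on cytosines that are followed by a guanine (CpG). DNMT3A and DNMT3B place them on unmethylated DNA with the help of DNMT3L, UHRF1 and DNMT1 copy them to the new strand after replication, and the TET enzymes oxidise them as a step towards removal. In the mouse embryo most methylation inherited from the gametes is lost before implantation, while imprinted regions keep theirs through ZFP57 and TRIM28, and a new wave of methylation follows around implantation.

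The table of RefSeq promoters (assembly GRCm38.p6, 250 bases before to 50 bases after each start) held 19 windows for the 10 genes. The windows below are printed because the stage results turn on these 4 genes. Dnmt3b, Uhrf1 and Zfp57, a writer, a reader of half-methylated DNA and an imprint protector, were higher in late blastocysts than in morulae. Trim28 is a corepressor whose fall passed the main test in control siRNA embryos only, and not without some single libraries. For a gene with several starts the window with the most CpGs is shown, 5′ to 3′ on the gene's strand, and capitals mark CpG, the substrate of these enzymes.
Dnmt3b: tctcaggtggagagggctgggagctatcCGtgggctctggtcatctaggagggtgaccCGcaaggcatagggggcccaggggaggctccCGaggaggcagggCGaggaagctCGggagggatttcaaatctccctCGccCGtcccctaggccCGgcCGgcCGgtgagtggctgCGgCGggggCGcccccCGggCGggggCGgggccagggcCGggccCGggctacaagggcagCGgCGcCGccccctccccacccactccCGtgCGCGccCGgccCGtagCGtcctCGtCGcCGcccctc
Uhrf1: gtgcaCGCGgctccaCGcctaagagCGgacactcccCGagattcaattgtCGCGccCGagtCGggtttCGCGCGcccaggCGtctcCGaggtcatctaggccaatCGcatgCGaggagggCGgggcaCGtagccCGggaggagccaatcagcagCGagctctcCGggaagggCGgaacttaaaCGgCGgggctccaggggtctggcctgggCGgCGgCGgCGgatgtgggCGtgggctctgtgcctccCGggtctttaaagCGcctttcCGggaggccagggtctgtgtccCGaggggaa
Zfp57: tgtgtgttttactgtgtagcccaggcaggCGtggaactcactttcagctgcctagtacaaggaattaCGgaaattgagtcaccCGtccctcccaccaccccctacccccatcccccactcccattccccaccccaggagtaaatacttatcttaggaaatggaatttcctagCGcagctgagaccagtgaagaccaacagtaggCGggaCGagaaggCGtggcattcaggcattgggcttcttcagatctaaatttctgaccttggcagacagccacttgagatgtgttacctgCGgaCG
Trim28: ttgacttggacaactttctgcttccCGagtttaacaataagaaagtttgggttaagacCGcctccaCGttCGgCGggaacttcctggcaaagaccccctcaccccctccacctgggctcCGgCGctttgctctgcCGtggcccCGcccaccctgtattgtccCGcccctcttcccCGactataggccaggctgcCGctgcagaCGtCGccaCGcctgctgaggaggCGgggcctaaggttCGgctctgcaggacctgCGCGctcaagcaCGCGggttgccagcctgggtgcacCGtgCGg

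The Dnmt3b window (chr2:153649199-153649498, plus strand) holds 30 CpGs and the Uhrf1 window (chr17:56304063-56304362, plus strand) holds 33. The Trim28 window (chr7:13023902-13024201, plus strand) holds 23, whereas the Zfp57 window (chr17:37002275-37002574, plus strand) holds 9. Over the 32851 promoter windows of the mouse table the median was 7 CpGs, and 88.3% of windows held fewer than that of Dnmt3b, 91.4% fewer than that of Uhrf1, 78.5% fewer than that of Trim28 and 54.2% fewer than that of Zfp57. The other 2 Zfp57 windows held 4 and 6 CpGs, so the 3 windows of that gene lie on both sides of the median. The 3 Dnmt3l windows held 3, 4 and 6, all below the median, while the single Tet2 window held 57. Methylation itself was not measured in these samples, and the CpG count is a description of the sequence only.

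Library depth was 10524640 to 13770264 reads, and the lowest read count of a member in any library was 42. Tdgf1 RNA, the check of the siRNA, stood at 52.8% and 47.0% of the same-numbered control in morulae, at 42.6% and 116.5% in early blastocysts and at 50.9% and 83.6% in late blastocysts, so it was not lower in early blastocyst pair 2. The summed RNA levels of cell type markers changed with stage. For 9 trophectoderm markers (9 of 9 past the filter) the sum was 629.6 to 871 CPM over the morula libraries. It was 1750.3 to 3809.6 CPM over the early blastocyst libraries and 5418 to 7708 CPM over the late blastocyst libraries. The summed level of 9 epiblast markers (8 of 9 past the filter, Tdgf1 among them) was 747 to 1047 CPM in morulae, 827 to 938 CPM in early blastocysts and 367 to 405 CPM in late blastocysts. That of 9 primitive endoderm markers (7 of 9 past the filter) was 772 to 795 CPM in morulae, 715 to 940.3 CPM in early blastocysts and 1047 to 1271 CPM in late blastocysts. Within the epiblast list Tdgf1, the siRNA target, went against the sum. Its mean was 26.4 CPM in control morulae and 90.9 CPM in control late blastocysts. In Tdgf1 siRNA embryos it was 13.3 and 60.1 CPM in that order. The sums do not show how each other marker moved. Of 10 maternal oocyte, 9 cumulus and granulosa and 4 blood markers, 1 of each list passed the filter (Padi6, Amhr2 and Cd74), and the 3 sums reached at most 43.6 CPM in any library. In libraries of whole embryos, fewer cells of a type and less RNA per cell cannot be told apart. The part of any change in makeup in the stage results below was not tested.

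Between morula and late blastocyst more members rose than fell. In Tdgf1 siRNA embryos 7 members rose and 0 fell, with Zfp57, Uhrf1, Dnmt3b, Tet3, Dnmt1, Tet1 and Dnmt3l higher in late blastocysts (limma, Benjamini-Hochberg adjusted p under 0.05 over all genes tested). In the same comparison 27.2% of all genes tested were called higher and 16.6% lower. In control embryos 4 members rose (Zfp57, Dnmt3b, Uhrf1 and Dnmt3l) and 1 fell (Trim28), against a background of 28.9% called higher and 19.3% lower. The median log2 change over the 10 members was 0.68 in Tdgf1 siRNA embryos and 0.43 in control embryos, beside 0.13 over all genes tested in either arm. The 8 libraries of these comparisons are separate between arms, but same-numbered libraries of a stage deviate together, so the 2 arms are not fully independent.

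**Figure D1:**
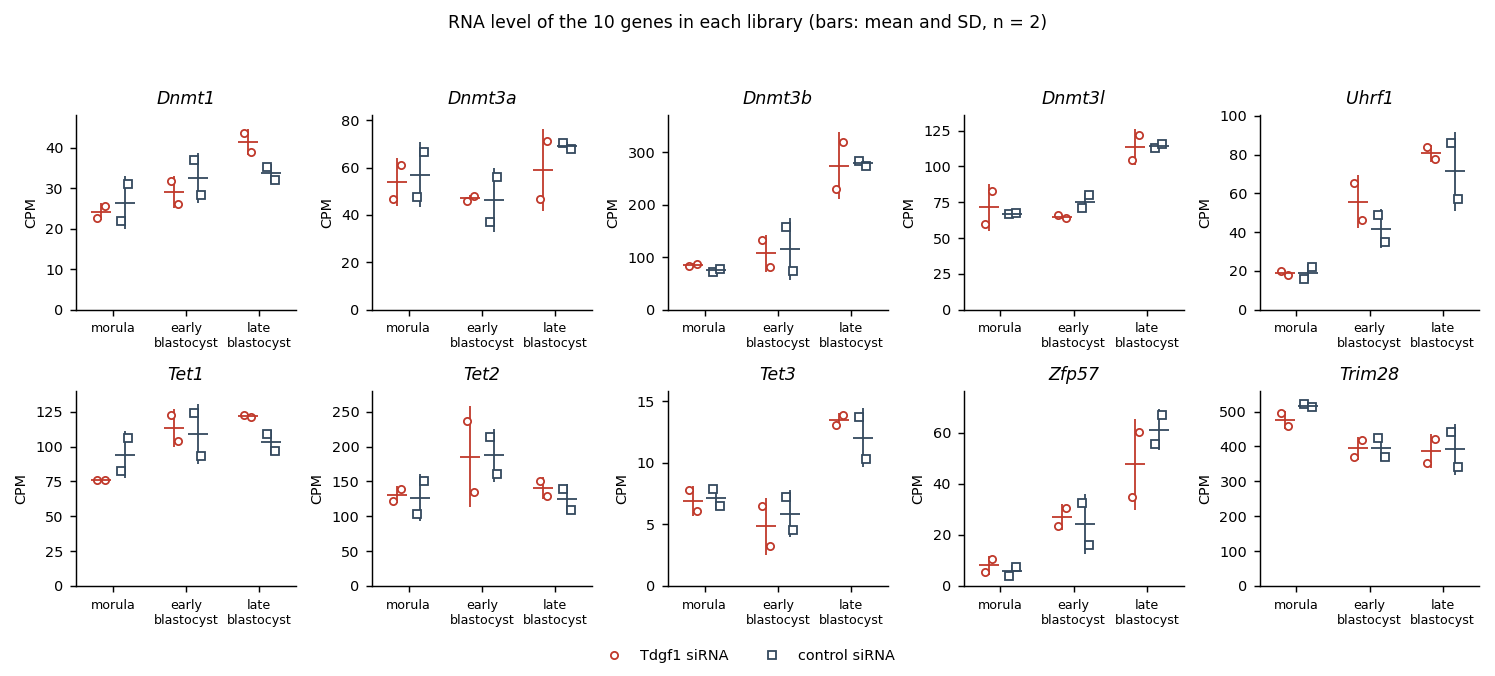
RNA level (CPM, linear axis from 0) of the 10 genes in each library at 3 stages, with Tdgf1 siRNA embryos as circles and control siRNA embryos as squares, and the mean and SD of each pair of libraries as bars (n = 2). Uhrf1, Zfp57 and Dnmt3b are highest in late blastocysts in both arms, Tet2 is highest in early blastocyst library 1 of each arm, and Trim28 is highest in morulae.

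Counts of groups that did not overlap need the same background. In Tdgf1 siRNA embryos the late blastocyst and morula libraries did not overlap for 8 members, where 74.3% of all genes tested did not overlap. The early blastocyst and morula libraries did not overlap for 5 members (55.8% of all genes), and the late and early blastocyst libraries for 6 (62.9% of all genes). In control embryos the counts were 8 (76.5%), 5 (57.4%) and 7 (66.9%). The members' counts were thus close to the background in every comparison.

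From morula to early blastocyst, 2 members rose in Tdgf1 siRNA embryos (Uhrf1 and Zfp57) and 0 fell, beside 8.8% of all genes called higher and 6.62% lower. In controls Uhrf1 and Zfp57 rose as well, again 2 members with 0 lower, where 9.52% of all genes were called higher and 6.32% lower. Between early and late blastocyst, 3 members rose in Tdgf1 siRNA embryos (Dnmt3b, Dnmt3l and Tet3) and 0 fell, beside 15.0% called higher and 8.59% lower. In controls 5 members rose over that step (Dnmt3b, Zfp57, Dnmt3l, Uhrf1 and Tet3) and 0 fell, beside 16.5% called higher and 11.2% lower. Both steps of an arm share its early blastocyst libraries, so a low value there raises one step and lowers the other.

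**Figure D2:**
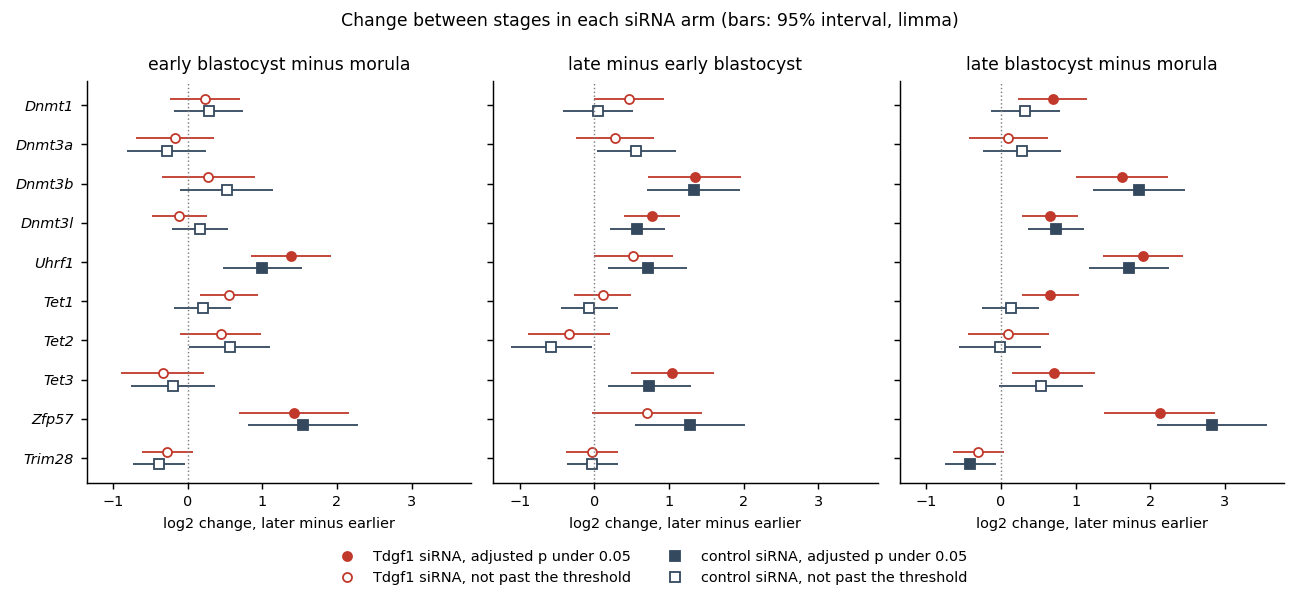
Log2 change with its 95% interval for each gene between stages, later minus earlier, in Tdgf1 siRNA embryos (circles) and control siRNA embryos (squares), on a shared axis. Filled symbols passed the threshold: Uhrf1 and Zfp57 in the first panel, mainly Dnmt3b, Dnmt3l and Tet3 in the second, and Zfp57, Uhrf1 and Dnmt3b with the longest distances from 0 in the third.

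The scale of the late blastocyst comparisons moved with the normalization. In Tdgf1 siRNA embryos the median change over all genes from morula to late blastocyst was 0.13 as deposited, -0.03 after TMM scaling and -0.07 after quantile normalization, and the share of calls that were higher was 62%, 49.5% and 48.2% in that order. In controls the medians were 0.13, -0.03 and -0.06, and the shares 60%, 48.5% and 46.9%. For late against early blastocysts the share was 63.6%, 41.6% and 49.5% in Tdgf1 siRNA embryos and 59.6%, 45.8% and 48.2% in controls. Every stage call of a member kept its direction under each of these scalings. The directions that did turn belonged to uncalled changes of Dnmt1, Tet1, Tet2, Dnmt3a and Trim28.

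Of the maintenance pair, Uhrf1 rose from morula to early blastocyst in both arms and again to late blastocyst in controls, while Dnmt1 passed in 1 of 6 stage comparisons. Uhrf1 (chr17:56303321-56323486, 18 exon blocks), the reader of half-methylated CpGs that brings DNMT1 to replicated DNA, had 20.1 and 17.8 CPM in Tdgf1 siRNA morulae and 16.0 and 22.1 CPM in control morulae. It had 65.6 and 46.0 CPM in Tdgf1 siRNA early blastocysts and 48.9 and 34.7 CPM in control early blastocysts. It had 83.7 and 77.6 CPM in Tdgf1 siRNA late blastocysts and 85.7 and 56.8 CPM in control late blastocysts. Every early blastocyst library lay above every morula library, and in each arm the late libraries lay above the early ones.

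In Tdgf1 siRNA embryos Uhrf1 averaged 55.8 ± 13.8 CPM in early blastocysts and 18.9 ± 1.66 CPM in morulae (SD, n = 2 each), a log2 change of 1.38 ± 0.25 (SE, limma adjusted p = 0.00364). In controls the same step gave 41.8 ± 10.1 and 19.0 ± 4.37 CPM in that order, a log2 change of 1.0 ± 0.25 (limma adjusted p = 0.017). The next step was 0.52 ± 0.25 in Tdgf1 siRNA embryos and did not pass (limma adjusted p = 0.141), and it was 0.71 ± 0.25 in controls (limma adjusted p = 0.0468). Over the whole span Uhrf1 was 1.90 ± 0.25 higher on the log2 scale in Tdgf1 siRNA late blastocysts than in their morulae (limma adjusted p = 5.7e-05) and 1.71 ± 0.25 higher in controls (limma adjusted p = 9.47e-05). The span kept its call in all 12 alternatives run in Tdgf1 siRNA embryos and all 14 in controls. The first control step lost it without morula control library 1 (0.80, limma adjusted p = 0.123) and without early blastocyst control library 1 (0.77, limma adjusted p = 0.159), and it held in 10 of the 12 other alternatives. The second control step lost it without early blastocyst control library 2 (0.48, limma adjusted p = 0.307), without late blastocyst control library 1 (0.43, limma adjusted p = 0.367). That step held in 7 of the 12 other alternatives, and the ones that lost it gave 0.48 to 0.75 with limma adjusted p = 0.0503 to 0.244, TMM scaling among them (0.57, limma adjusted p = 0.0647).

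Dnmt1 (chr9:20907209-20959888, minus strand), the maintenance methyltransferase, had 22.7 and 25.6 CPM in Tdgf1 siRNA morulae and 21.8 and 31.0 CPM in control morulae. In early blastocysts it had 31.8 and 26.2 CPM in the Tdgf1 siRNA arm and 37.0 and 28.2 CPM in controls. In late blastocysts it had 43.6 and 39.0 CPM in the Tdgf1 siRNA arm and 35.3 and 32.0 CPM in controls. The Tdgf1 siRNA late blastocysts held the 2 highest values of the 12. The change from morula to late blastocyst was 0.69 ± 0.22 on the log2 scale in Tdgf1 siRNA embryos (limma adjusted p = 0.0188) and 0.33 ± 0.22 in controls (limma adjusted p = 0.229). That call was lost without morula Tdgf1 siRNA library 1 (0.62, limma adjusted p = 0.102), without late blastocyst Tdgf1 siRNA library 1 (0.62, limma adjusted p = 0.104), without library 2 (0.77, limma adjusted p = 0.0546) and after quantile normalization (0.48, limma adjusted p = 0.0548). From morula to early blastocyst the Dnmt1 change was 0.23 in Tdgf1 siRNA embryos (limma adjusted p = 0.505) and 0.28 in controls (limma adjusted p = 0.413). The siRNA difference of Dnmt1 did not vary by stage beyond the spread (moderated F test, F = 1.1, limma adjusted p = 1), so the 2 arms were not shown to differ. Dnmt1 is known to have an oocyte start and a somatic start, RefSeq lists 3 windows, and a value per gene does not separate their RNAs.

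Within each library the ratio of Uhrf1 to Dnmt1, both per kilobase of exon, changed with stage. It was 1.54 and 1.20 in Tdgf1 siRNA morulae and 1.27 and 1.24 in control morulae. It was 3.57 and 3.04 in Tdgf1 siRNA early blastocysts and 2.29 and 2.13 in control early blastocysts. It was 3.33 and 3.45 in Tdgf1 siRNA late blastocysts and 4.21 and 3.08 in control late blastocysts. No morula library overlapped a later one. In early blastocysts both Tdgf1 siRNA libraries lay above both controls, but pair 2 of that stage had Tdgf1 RNA at 116.5% of its control. In morulae and in late blastocysts the arms overlapped. The difference between arms in this ratio was not tested.

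Among the de novo genes Dnmt3b had the largest change, and its call lay between early and late blastocyst. Dnmt3b (chr2:153649450-153687730, plus strand), a methyltransferase that sets new methylation patterns, had 83.8 and 87.6 CPM in Tdgf1 siRNA morulae and 71.8 and 77.8 CPM in control morulae. It had 133 and 82.2 CPM in Tdgf1 siRNA early blastocysts and 158 and 74.6 CPM in control early blastocysts. It had 229 and 319.8 CPM in Tdgf1 siRNA late blastocysts and 283 and 274 CPM in control late blastocysts. All 4 late libraries lay above all others, while the early blastocyst libraries split by number, with library 1 of either arm above the morulae and library 2 at their level.

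The log2 change of Dnmt3b from early to late blastocyst was 1.34 ± 0.29 in Tdgf1 siRNA embryos (limma adjusted p = 0.00554) and 1.33 ± 0.29 in controls (limma adjusted p = 0.00468). Over the whole span it was 1.62 ± 0.29 in Tdgf1 siRNA embryos (limma adjusted p = 0.00056) and 1.85 ± 0.29 in controls (limma adjusted p = 0.000167), and the span kept its call in every alternative run in both arms. The later step lost its call in Tdgf1 siRNA embryos without early blastocyst Tdgf1 siRNA library 2 (1.01, limma adjusted p = 0.0641) and without late blastocyst Tdgf1 siRNA library 2 (1.10, limma adjusted p = 0.0704). It was lost in controls without early blastocyst control library 2 (0.80, limma adjusted p = 0.0597), and in both arms with no filter (1.34, limma adjusted p = 0.0554 in Tdgf1 siRNA embryos and 1.33, limma adjusted p = 0.0506 in controls). The earlier step did not pass in Tdgf1 siRNA embryos (0.28 ± 0.29, limma adjusted p = 0.553) or in controls (0.52 ± 0.29, limma adjusted p = 0.24), but without early blastocyst control library 2 it was 1.05 in controls (limma adjusted p = 0.0153).

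The early blastocyst libraries also differed by number in the RNA of trophectoderm markers. Library 1 had trophectoderm marker sums of 3553 CPM in Tdgf1 siRNA and 3809.6 CPM in control early blastocysts, and library 2 had 1866 and 1750.3 CPM. Uhrf1 and Tet3 were also higher in library 1 than in library 2 in both arms, as were Dnmt1, Tet1 and Tet2. Dnmt3a was lower in library 1 in both arms, with 46.0 against 48.0 CPM in Tdgf1 siRNA embryos and 37.0 against 56.1 CPM in controls. Dnmt3l, Zfp57 and Trim28 went opposite ways in the 2 arms. The part of any difference in makeup in these levels was not tested, and the labels do not say what the numbers stand for. The first step called 4 members in Tdgf1 siRNA embryos with early blastocyst library 1 alone (15.8% of all genes called) and 2 with library 2 alone (10.6%). In controls it called 4 with library 1 alone (19.3%) and 0 with library 2 alone (5.1%), so the members' counts moved with those of all genes.

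Dnmt3l (chr10:78041947-78063622, plus strand), an inactive homologue that stimulates DNMT3A and DNMT3B, had 59.8 and 82.9 CPM in Tdgf1 siRNA morulae and 66.7 and 67.4 CPM in control morulae. It had 65.9 and 63.8 CPM in Tdgf1 siRNA early blastocysts and 71.1 and 79.8 CPM in control early blastocysts. It had 105 and 122 CPM in Tdgf1 siRNA late blastocysts and 113 and 116 CPM in control late blastocysts. The 4 late libraries lay above the other 8, which mixed by stage. The log2 change from early to late blastocyst was 0.77 ± 0.17 in Tdgf1 siRNA embryos (limma adjusted p = 0.0072) and 0.58 ± 0.17 in controls (limma adjusted p = 0.0253). The Dnmt3l call of that step was lost in Tdgf1 siRNA embryos without late blastocyst Tdgf1 siRNA library 2 (0.66, limma adjusted p = 0.0751). In controls it was lost without any 1 of its 4 libraries (0.50 to 0.66, limma adjusted p = 0.067 to 0.11), and it held in 6 of the 12 other alternatives. It was lost after TMM scaling (0.43, limma adjusted p = 0.105), with no filter (0.58, limma adjusted p = 0.0661), in edgeR (0.50, edgeR adjusted p = 0.0658), in DESeq2 (0.51, DESeq2 adjusted p = 0.0553) and with early blastocyst library 1 alone (0.66, limma adjusted p = 0.0563) or library 2 alone (0.50, limma adjusted p = 0.0934).

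Over the whole span Dnmt3l rose by 0.66 ± 0.17 on the log2 scale in Tdgf1 siRNA embryos (limma adjusted p = 0.00754) and by 0.74 ± 0.17 in controls (limma adjusted p = 0.00326). The Dnmt3l span of Tdgf1 siRNA embryos lost its call without morula Tdgf1 siRNA library 1 (0.43, limma adjusted p = 0.107), without late blastocyst Tdgf1 siRNA library 2 (0.55, limma adjusted p = 0.0745) and after TMM scaling (0.47, limma adjusted p = 0.0559). The control span kept its call in all 14 alternatives. Of the exon bases of Dnmt3l, 2.24% overlap Aire on the other strand, and the strand used in counting is not stated.

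Dnmt3a (chr12:3806007-3914443, plus strand), the other active de novo enzyme, had 46.7 and 61.2 CPM in Tdgf1 siRNA morulae and 47.4 and 66.7 CPM in control morulae. It had 46.0 and 48.0 CPM in Tdgf1 siRNA early blastocysts and 37.0 and 56.1 CPM in control early blastocysts. It had 46.6 and 71.0 CPM in Tdgf1 siRNA late blastocysts and 70.4 and 67.8 CPM in control late blastocysts. No stage change of Dnmt3a passed the threshold in either arm. The widest was from early to late blastocyst in controls, 0.56 with a 95% interval of 0.04 to 1.09 (limma adjusted p = 0.103). Dnmt3c, a rodent homologue listed as Gm14490, reached at most 20 reads in a library and did not pass the filter.

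Relative to Dnmt3b, the other de novo genes stood lower in late blastocysts than in morulae. Per kilobase of exon, Dnmt3a relative to Dnmt3b was 0.171 and 0.214 in Tdgf1 siRNA morulae and 0.203 and 0.263 in control morulae. It was 0.106 and 0.179 in Tdgf1 siRNA early blastocysts and 0.0717 and 0.231 in control early blastocysts. It was 0.0625 and 0.0681 in Tdgf1 siRNA late blastocysts and 0.0763 and 0.0759 in control late blastocysts. The late and morula libraries did not overlap, and of the control early blastocyst libraries library 1 lay in the late range and library 2 in the morula range. In late blastocysts both Tdgf1 siRNA libraries lay below both controls, while at the earlier stages the arms overlapped, and this was not tested.

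For Dnmt3l relative to Dnmt3b the ratio was 1.22 and 1.62 in Tdgf1 siRNA morulae and 1.59 and 1.48 in control morulae, so Dnmt3l RNA stood above Dnmt3b RNA per length in all 4. It was 0.849 and 1.33 in Tdgf1 siRNA early blastocysts and 0.769 and 1.83 in control early blastocysts, below 1 in library 1 and above it in library 2 of both arms. It was 0.781 and 0.653 in Tdgf1 siRNA late blastocysts and 0.679 and 0.721 in control late blastocysts, where Dnmt3b stood above Dnmt3l in all 4. Which of the pair stood higher after the morula turned on the length used. Per kilobase of the longest coding transcript the Dnmt3l to Dnmt3b ratio was 1.69 to 2.25 in morulae, 1.07 to 2.54 in early blastocysts and 0.906 to 1.08 in late blastocysts, so the order in late blastocysts held only per kilobase of exon, while the late ratios lay below the morula ratios with either length. These ratios were given no test.

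**Figure D3:**
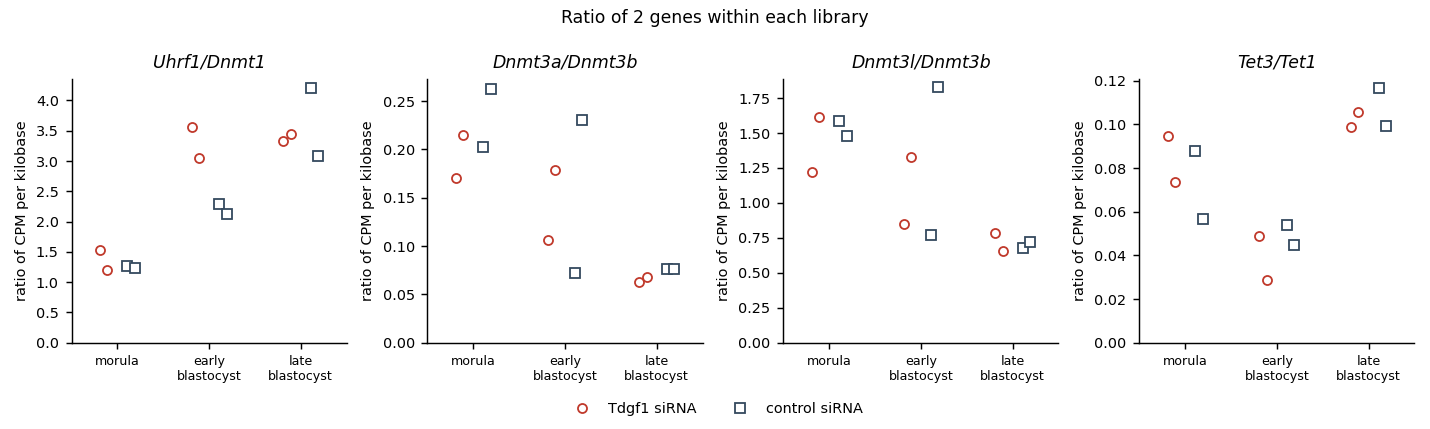
Ratio of 2 genes within each library (CPM per kilobase of exon, linear axes from 0) at 3 stages, with Tdgf1 siRNA embryos as circles and control siRNA embryos as squares. Uhrf1 relative to Dnmt1 was 1.20 to 1.54 in morulae, 2.13 to 3.57 in early and 3.08 to 4.21 in late blastocysts, and Dnmt3a relative to Dnmt3b was 0.171 to 0.263 in morulae, 0.0717 to 0.231 in early and 0.0625 to 0.0763 in late blastocysts.

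The Tet genes did not move as a group. Tet1 (chr10:62804570-62908996, minus strand), an oxidase of the pluripotent lineage, had 76.1 and 75.8 CPM in Tdgf1 siRNA morulae and 82.5 and 106 CPM in control morulae. It had 123 and 104 CPM in Tdgf1 siRNA early blastocysts and 124 and 93.5 CPM in control early blastocysts. It had 123 and 121 CPM in Tdgf1 siRNA late blastocysts and 109 and 96.6 CPM in control late blastocysts. The Tdgf1 siRNA libraries were both below the controls in morulae and both above them in late blastocysts.

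From morula to late blastocyst Tet1 rose by 0.66 ± 0.18 on the log2 scale in Tdgf1 siRNA embryos (limma adjusted p = 0.0085), a call kept in all 12 alternatives run. In controls the Tet1 change was 0.13 with a 95% interval of -0.25 to 0.51 (limma adjusted p = 0.568), and it was -0.05 after TMM scaling. From morula to early blastocyst the Tet1 change was 0.55 ± 0.18 in Tdgf1 siRNA embryos (limma adjusted p = 0.0517) and 0.20 ± 0.18 in controls (limma adjusted p = 0.49). The difference between arms is tested by whether the siRNA difference varies by stage, and it did not pass for Tet1 (moderated F test, F = 2.3, limma adjusted p = 1).

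Tet2 (chr3:133463679-133545139, minus strand), a TET oxidase without the CXXC domain of its homologues, had 122 and 139 CPM in Tdgf1 siRNA morulae and 103 and 151 CPM in control morulae. It had 237 and 134 CPM in Tdgf1 siRNA early blastocysts and 214 and 161 CPM in control early blastocysts. It had 151 and 129.6 CPM in Tdgf1 siRNA late blastocysts and 139.6 and 109 CPM in control late blastocysts. Both early blastocyst libraries numbered 1 stood above all other libraries. No stage change of Tet2 passed, the nearest being -0.58 from early to late blastocyst in controls, with a 95% interval of -1.12 to -0.03 (limma adjusted p = 0.108). It passed after TMM scaling (-0.73, limma adjusted p = 0.0294) and in DESeq2 (-0.67, DESeq2 adjusted p = 0.0342). From morula to early blastocyst the Tet2 change was 0.44 in Tdgf1 siRNA embryos (limma adjusted p = 0.261) and 0.56 in controls (limma adjusted p = 0.151). With 1 library left out it ran from 0.04 to 0.84 and from 0.30 to 0.83 in that order.

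Tet3 (chr6:83362373-83459084, minus strand), the oxidase carried by the oocyte into the zygote, had the lowest mean level of the members over the 12 libraries. In library 1 of both morula groups Zfp57 was lower. Tet3 had 7.77 and 6.04 CPM in Tdgf1 siRNA morulae and 7.84 and 6.46 CPM in control morulae. It had 6.48 and 3.21 CPM in Tdgf1 siRNA early blastocysts and 7.19 and 4.50 CPM in control early blastocysts, and 13.1 and 13.9 CPM in Tdgf1 siRNA late blastocysts and 13.8 and 10.3 CPM in control late blastocysts. The 4 late libraries lay above all 8 earlier ones.

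Between early and late blastocyst Tet3 rose by 1.04 ± 0.26 on the log2 scale in Tdgf1 siRNA embryos (limma adjusted p = 0.0118) and by 0.73 ± 0.26 in controls (limma adjusted p = 0.0488). The mean levels over that step gave a fold of 2.78 in Tdgf1 siRNA embryos and 2.06 in controls, since the pseudocount of 3.58 CPM in the test lowers the change of a gene at this level. In Tdgf1 siRNA embryos the Tet3 call was lost without early blastocyst Tdgf1 siRNA library 2 (0.76, limma adjusted p = 0.116) and without late blastocyst Tdgf1 siRNA library 2 (1.01, limma adjusted p = 0.0749). In controls it was lost without early blastocyst control library 2 (0.53, limma adjusted p = 0.301), without late blastocyst control library 1 (0.58, limma adjusted p = 0.272) and without library 2 (0.89, limma adjusted p = 0.0805). It held there in 4 of the 11 other alternatives, and the ones that lost it gave 0.52 to 1.02, with adjusted p = 0.0509 in DESeq2 to 0.223 with early blastocyst library 1 alone in limma. Over the whole span the change of Tet3 was 0.71 ± 0.26 in Tdgf1 siRNA embryos (limma adjusted p = 0.0399) and 0.54 ± 0.26 in controls (limma adjusted p = 0.103). The Tdgf1 siRNA call passed in 1 of 11 alternatives and was lost without any 1 of its 4 libraries (0.59 to 0.83, limma adjusted p = 0.0686 to 0.183).

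Tet3 RNA stayed low relative to Tet1. Per kilobase of exon the ratio was 0.0945 and 0.0738 in Tdgf1 siRNA morulae and 0.088 and 0.0565 in control morulae. It was 0.0488 and 0.0287 in Tdgf1 siRNA early blastocysts and 0.0537 and 0.0446 in control early blastocysts. It was 0.0986 and 0.106 in Tdgf1 siRNA late blastocysts and 0.117 and 0.0991 in control late blastocysts. The early blastocyst libraries were lowest and the late ones highest, with no overlap between the 3 stages.

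Zfp57 had the widest change of the 10 members. Zfp57 (chr17:37001163-37010635, plus strand), a zinc finger protein that binds methylated imprinting control regions, had 5.44 and 10.7 CPM in Tdgf1 siRNA morulae and 3.92 and 7.51 CPM in control morulae. It had 23.5 and 30.6 CPM in Tdgf1 siRNA early blastocysts and 32.7 and 16.0 CPM in control early blastocysts. It had 35.0 and 60.1 CPM in Tdgf1 siRNA late blastocysts and 55.6 and 67.0 CPM in control late blastocysts. The 3 stages did not overlap within either arm.

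From morula to early blastocyst Zfp57 rose by 1.42 ± 0.34 on the log2 scale in Tdgf1 siRNA embryos (limma adjusted p = 0.0155) and by 1.55 ± 0.34 in controls (limma adjusted p = 0.0106). The change from early to late blastocyst was 0.70 ± 0.34 in Tdgf1 siRNA embryos (limma adjusted p = 0.152) and 1.28 ± 0.34 in controls (limma adjusted p = 0.0149). Over the whole span Zfp57 rose by 2.13 ± 0.34 in Tdgf1 siRNA embryos (limma adjusted p = 0.000276) and by 2.82 ± 0.34 in controls (limma adjusted p = 2.47e-05), and the mean levels gave folds of 5.89 and 10.7 in that order. The span kept its call in every alternative run in both arms.

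The single steps of Zfp57 were less stable. The first step lost its call in Tdgf1 siRNA embryos without morula Tdgf1 siRNA library 1 (1.09, limma adjusted p = 0.133) and without early blastocyst Tdgf1 siRNA library 2 (1.25, limma adjusted p = 0.0716). It was lost in controls without morula control library 1 (1.26, limma adjusted p = 0.0869) and without early blastocyst control library 1 (1.10, limma adjusted p = 0.124). The second Zfp57 step in controls was lost without early blastocyst control library 2 (0.83, limma adjusted p = 0.163), without late blastocyst control library 1 (1.41, limma adjusted p = 0.059) and without library 2 (1.15, limma adjusted p = 0.0958). In controls each step held in 10 of the 12 other alternatives.

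Trim28, the corepressor that ZFP57 and other KRAB zinc finger proteins recruit, was the most abundant member and the only one called lower at any stage. Trim28 (chr7:12999114-13031035, plus strand) had 495 and 458 CPM in Tdgf1 siRNA morulae and 520.2 and 514 CPM in control morulae. It had 370.1 and 418 CPM in Tdgf1 siRNA early blastocysts and 424 and 369 CPM in control early blastocysts. It had 352 and 422 CPM in Tdgf1 siRNA late blastocysts and 443 and 339.9 CPM in control late blastocysts. All 4 morula libraries lay above the other 8, which overlapped each other.

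From morula to late blastocyst the log2 change of Trim28 was -0.30 ± 0.16 in Tdgf1 siRNA embryos (limma adjusted p = 0.143), and in controls Trim28 fell by 0.41 (SE 0.16, limma adjusted p = 0.048). The Tdgf1 siRNA change passed after TMM scaling (-0.49, limma adjusted p = 0.0328) and in DESeq2 (-0.46, DESeq2 adjusted p = 0.0302). The control call was lost without morula control library 1 (-0.40, limma adjusted p = 0.142), without morula control library 2 (-0.42, limma adjusted p = 0.123), without late blastocyst control library 2 (-0.22, limma adjusted p = 0.371), after quantile normalization (-0.34, limma adjusted p = 0.0916) and with no filter (-0.41, limma adjusted p = 0.118). Nearly the whole difference lay between morula and early blastocyst, -0.27 ± 0.16 in Tdgf1 siRNA embryos and -0.38 ± 0.16 in controls, which did not pass (limma adjusted p = 0.271 and 0.121).

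Levels can be set beside each other only per length. Over the 12 libraries the mean level per kilobase of exon was 102.7 CPM for Trim28, 30.6 for Dnmt3b, 28.2 for Dnmt3l, 11.3 for Uhrf1 and 8.85 for Tet2. It was 7.66 for Zfp57, 6.66 for Tet1, 4.23 for Dnmt1, 3.33 for Dnmt3a and 0.502 for Tet3. Trim28 lay above and Tet3 below every other member in all libraries, with Trim28 at 81.8 to 125 CPM and Tet3 at 0.193 to 0.83 CPM per kilobase. Between these 2, neighbours in the order overlapped in range, and with the longest coding transcript as the length Dnmt3l came before Dnmt3b, Tet2 before Uhrf1 and Dnmt3a before Dnmt1.

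**Figure D4:**
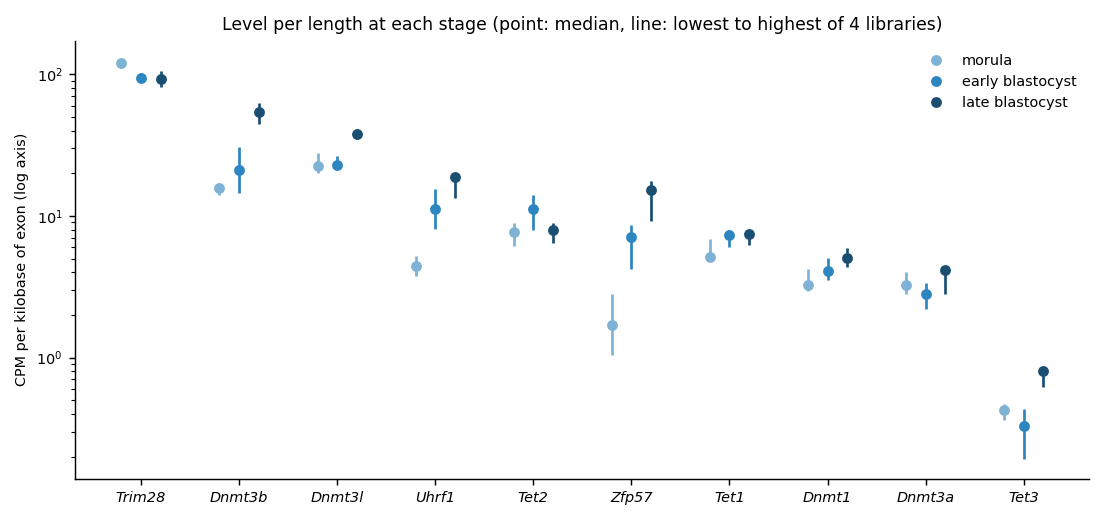
Level per kilobase of exon (CPM per kilobase, log axis) of the 10 genes at each stage, with the median as a point and the lowest to highest of 4 libraries as a line. Trim28 is highest and Tet3 lowest at every stage, and Dnmt3b passes Dnmt3l in late blastocysts (median 54.6 against 38.2 CPM per kilobase).

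Zfp57 changed place most. Its level per kilobase was 1.04 to 2.83 CPM in morulae, below all members other than Tet3 apart from an overlap with Dnmt3a by its highest library. In early blastocysts it was 4.22 to 8.63 CPM per kilobase. In late blastocysts it was 9.24 to 17.7 CPM per kilobase, above the range of Tet2 (6.46 to 8.97), Tet1 (6.25 to 7.95) and Dnmt1 (4.34 to 5.9). Uhrf1 made a like move, with 3.75 to 5.2 CPM per kilobase in morulae, 8.15 to 15.4 CPM per kilobase in early blastocysts and 13.3 to 20.1 CPM per kilobase in late blastocysts.

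Across the 12 libraries, which share stages, members were compared by Pearson correlation of log2 values, which compares profiles and not levels. The pairs with the highest r were Uhrf1 with Zfp57 (r = 0.910), Dnmt3b with Zfp57 (r = 0.873), Dnmt3b with Dnmt3l (r = 0.864) and Dnmt1 with Tet1 (r = 0.862). Trim28 ran against most members, with r = -0.698 to Uhrf1 and r = -0.694 to Zfp57. Tet2 had r = 0.009 to Dnmt3b, r = -0.251 to Dnmt3l and r = -0.441 to Dnmt3a. These values describe 12 libraries in 6 groups and carry no test.

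The same correlation over all genes tested gave the genes with the profile most like a member's over the 12 libraries. Levels could still lie far apart. Camk4 averaged 4.11 CPM beside 427 CPM for Trim28, and Echdc2 432 CPM beside 29.0 CPM for Zfp57. Hdac5, at 4.15 CPM, lay near the filter. The genes were Git2 and Ttyh2 for Dnmt1 (r = 0.969 and 0.960), Gm26751 and Pycard for Uhrf1 (0.980 and 0.979), and Hdac5 and Homer2 for Dnmt3a (0.858 and 0.848). For Dnmt3b they were Gm17035 and Cgnl1 (r = 0.994 and 0.989), and for Dnmt3l Lrrc8d and Rpap1 (0.967 and 0.966). For the oxidases they were Susd2 for Tet1 (r = 0.935), Rfx2 and Rnd2 for Tet2 (0.932 and 0.914) and Tead1 and Kansl1l for Tet3 (0.978 and 0.970). For Zfp57 they were Litaf and Echdc2 (r = 0.987 and 0.984), and for Trim28 Setd4 and Camk4 (0.921 and 0.911). No member was among the 2 closest genes of another member, and Dnmt3a had the weakest match of the 10.

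The siRNA against Tdgf1 gave no call among the members. At each of the 3 stages limma called 0 of 10 members and 0% of all genes tested, in the mean over stages likewise 0 and 0%, and in the F test of whether the difference varied by stage 0 and 0%. Tdgf1, the RNA targeted, was among the genes tested and was not called either. A lower level of the size seen for Tdgf1 could therefore go uncalled in these tests. Without adjustment 0 members had a limma p under 0.05 in any of these 5 tests. Of the 10751 genes tested 194 did in morulae, 112 in early blastocysts, 221 in late blastocysts, 268 in the mean over stages and 97 in the F test. With so few among all genes, 0 of 10 members says little about the members. EdgeR and DESeq2 on the recovered reads also called 0 members in all of them. The limma fit with the pairs as a replicate block called 0 members, with 5 genes in all in morulae, 5 in early blastocysts, 3 in late blastocysts, 0 in the mean over stages and 1 in the F test. At an unadjusted p under 0.05 that fit had 1 member in morulae (Tet1), 1 in early blastocysts (Uhrf1), 0 in late blastocysts, 0 in the mean over stages and 1 in the F test (Tet1), and none of these passed adjustment.

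**Figure D5:**
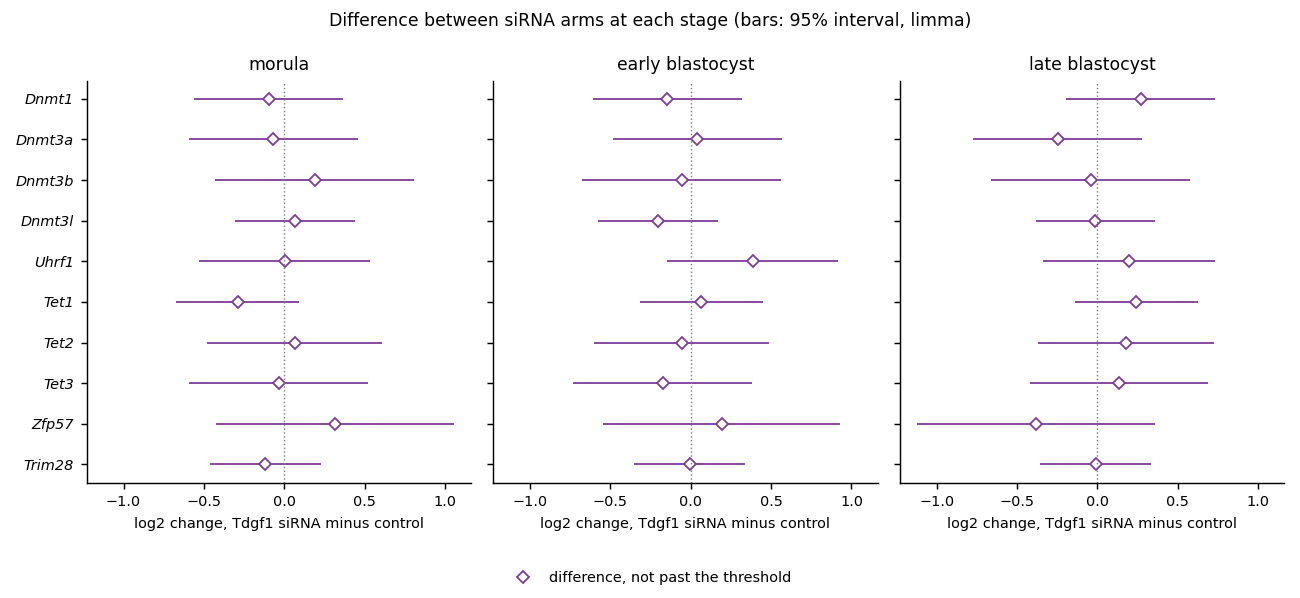
Log2 difference with its 95% interval for each gene between Tdgf1 siRNA and control siRNA embryos at each stage, on a shared axis. Every interval crosses 0, and Tet1 lies below 0 in morulae (-0.29) and above 0 in late blastocysts (0.24).

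Libraries of the arms did not overlap for 3 members in morulae (27.5% of all genes tested), 1 in early blastocysts (19.4%) and 2 in late blastocysts (31.9%). In morulae these were Tet1, at 75.9 ± 0.225 CPM in Tdgf1 siRNA embryos and 94.2 ± 16.6 CPM in controls (SD, n = 2 each), Trim28, at 476 ± 25.9 and 517 ± 4.58 CPM in that order, and Dnmt3b, at 85.7 ± 2.69 and 74.8 ± 4.28 CPM. In early blastocysts it was Dnmt3l, at 64.9 ± 1.45 CPM in Tdgf1 siRNA embryos and 75.5 ± 6.16 CPM in controls. In late blastocysts they were Dnmt1, at 41.3 ± 3.22 CPM in Tdgf1 siRNA embryos and 33.7 ± 2.32 CPM in controls, and Tet1, at 122 ± 1.03 and 103 ± 8.98 CPM. None of these differences passed the adjusted threshold (limma adjusted p = 1).

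The intervals of the siRNA differences come from the fit without pairs, although same-numbered libraries deviate together. The fit with the pairs as a replicate block had more genes at an unadjusted p under 0.05, 916 of all genes in the mean over stages against 268 without it. The widest intervals were those of Zfp57, whose log2 difference was 0.32 in morulae (95% interval -0.42 to 1.06), 0.19 in early blastocysts (-0.55 to 0.93) and -0.38 in late blastocysts (-1.12 to 0.36). The narrowest were those of Trim28, at -0.12 in morulae (-0.46 to 0.23), -0.01 in early blastocysts (-0.35 to 0.34) and -0.01 in late blastocysts (-0.35 to 0.34). Uhrf1 had the largest value in early blastocysts, 0.38 (-0.15 to 0.92), where both pairs were higher in Tdgf1 siRNA embryos, by 0.42 and 0.41 in log2 CPM. Tet2 differed by 0.06 in morulae, -0.06 in early and 0.18 in late blastocysts on the log2 scale, and Tet3 by -0.04, -0.17 and 0.13 in that order (limma adjusted p = 1 each). Averaged over stages, the differences of the 10 members ran from -0.09 for Dnmt3a (-0.40 to 0.21) to 0.20 for Uhrf1 (-0.11 to 0.50). Tdgf1 RNA itself was not lower in early blastocyst pair 2, so that pair adds no known knockdown to these averages.

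The wider pathway was read from 53 further genes, of which 45 passed the filter. In Tdgf1 siRNA embryos 5 rose and 4 fell from morula to early blastocyst, 9 rose and 5 fell from early to late blastocyst, and 13 rose and 12 fell from morula to late blastocyst. In controls the counts were 6 and 5, 8 and 7, and 10 and 12. Over all genes tested the shares called higher and lower were those given for the members, so that in Tdgf1 siRNA embryos 13 of 45 higher over the span stand beside 27.2% of all genes and 12 of 45 lower beside 16.6%, and in controls 10 of 45 and 12 of 45 beside 28.9% and 19.3%. In the siRNA comparisons 0 of the 45 were called by limma, with at most 1 at an unadjusted p under 0.05 in a test. The list's median change from morula to late blastocyst was 0.04 in Tdgf1 siRNA embryos and 0.08 in controls, beside 0.13 over all genes in either arm.

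From morula to early blastocyst in controls the largest change in this list was that of Tdg, the glycosylase that removes oxidised methylcytosine, with 28.0 ± 12.7 CPM in early blastocysts and 4.84 ± 1.47 CPM in morulae (SD, n = 2 each; log2 change 1.86, limma adjusted p = 0.00215). Idh2, a mitochondrial source of the TET cofactor alpha-ketoglutarate, had 146 ± 27.7 CPM in early blastocysts and 72.2 ± 1.06 CPM in morulae (0.97, limma adjusted p = 0.00447). Ahcy, which clears the by-product of methyl transfer, had 48.6 ± 12.6 and 25.1 ± 1.28 CPM in that order (0.84, limma adjusted p = 0.0215), and Mtr, which remakes methionine, 25.1 ± 1.2 and 13.4 ± 1.3 CPM (0.75, limma adjusted p = 0.0476). Setd2, which writes the histone mark read by DNMT3 enzymes, had 184 ± 24.9 CPM in early blastocysts and 373 ± 14.9 CPM in morulae (-1.01, limma adjusted p = 0.00222). Kdm2b, a demethylase that binds unmethylated CpG islands, had 97.3 ± 22.5 and 236 ± 107 CPM in that order (-1.19, limma adjusted p = 0.0103). Tdg and Setd2 kept the call in all 16 alternatives. Idh2 lost it without early blastocyst control library 1 (0.78, limma adjusted p = 0.0642), Kdm2b without that library (-0.96, limma adjusted p = 0.105) and without morula control library 2 (-0.72, limma adjusted p = 0.0949), Ahcy without any of 3 libraries (0.59 to 0.89, limma adjusted p = 0.0766 to 0.206) and Mtr without any of 4 (0.68 to 0.83, limma adjusted p = 0.113 to 0.193).

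From early to late blastocyst in controls the largest change was the fall of Dppa3, the maternal factor that restrains UHRF1 and guards the maternal genome, with 1028 ± 81.2 CPM in late and 4249 ± 1629 CPM in early blastocysts (SD, n = 2 each; log2 change -1.99, limma adjusted p = 0.000463). Apex1, which cuts DNA at the sites that glycosylases leave, had 120.0 ± 6.91 CPM in late and 251 ± 26.8 CPM in early blastocysts (-1.04, limma adjusted p = 0.000429). Mbd2, a reader of methylated CpG, had 38.6 ± 8.02 CPM in late and 11.3 ± 5.52 CPM in early blastocysts (1.54, limma adjusted p = 0.0012). Uhrf2, the homologue of Uhrf1, had 26.2 ± 0.841 and 7.9 ± 1.46 CPM in that order (1.38, limma adjusted p = 0.00432). Gadd45g, which couples demethylation to repair, had 38.4 ± 13.4 and 14.4 ± 6.24 CPM (1.23, limma adjusted p = 0.00647), and Tdg 64.5 ± 0.0365 and 28.0 ± 12.7 CPM (1.17, limma adjusted p = 0.0125). Dppa3, Apex1, Mbd2 and Uhrf2 kept the call in every alternative run. Gadd45g lost it without early blastocyst control library 2 (0.87, limma adjusted p = 0.087) and without late blastocyst control library 1 (0.90, limma adjusted p = 0.0967), and Tdg without any of 3 libraries (0.75 to 1.17, limma adjusted p = 0.0638 to 0.151).

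By role, the calls over the whole span in controls are given as counts without a test, beside 28.9% of all genes called higher and 19.3% lower. Of 5 methyl-CpG readers that passed the filter 2 rose and 0 fell, and of 4 cofactor and partner genes of oxidation 2 rose and 0 fell. Of 7 imprint protection and histone coupling genes 0 rose and 3 fell (Kdm2b, Setd2 and Ctcf). Mat2a, which makes the methyl donor, had 150.2 ± 6.68 CPM in late blastocysts and 475 ± 33.0 CPM in morulae (SD, n = 2 each; log2 change -1.64, limma adjusted p = 2.25e-06). Base excision genes went both ways, with 2 of 10 higher (Tdg and Gadd45g) and 3 lower (Ung, Apex1 and Parp1). Genes of KRAB zinc finger and TRIM28 repression also did, with 3 of 8 higher (Setdb1, Cbx1 and Cbx5) and 2 lower (Cbx3 and Morc3). In the group of maintenance and its control 1 of 5 rose (Uhrf2) and 2 fell (Dppa3 and Usp7). Some of these calls rested on single libraries, with those of Cbx5 and Parp1 lost without any of 3 libraries (limma adjusted p = 0.0662 to 0.208 for Cbx5 and 0.0847 to 0.151 for Parp1). Those of Setdb1, Morc3 and Ctcf were lost without any of 2 (limma adjusted p = 0.0909 and 0.136 for Setdb1, 0.0673 and 0.0654 for Morc3, and 0.0505 and 0.0609 for Ctcf).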

How the data were processed

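The deposited columns carry the heading RPKM per the file headers, but the values behave as CPM (a gene's reads for every 1000000 reads of its library) scaled down by 3.582. Each value is a whole multiple of a single step for genes of all lengths (100% of values whole within 0.01 reads), and each column sums to 279173.646. The design had assumed RPKM, and its log2 test was kept. The submitters' processing notes name HISAT2 2.1.0, Cufflinks, HTSeq and edgeR. Counting error alone puts the limit of a count of 0 at 3 reads, 0.218 to 0.285 CPM. That limit takes reads as independent, which amplified reads are not, so it may be too low. All 13 mitochondrial protein genes are listed at 0.

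Tests used limma 3.58.1 in R 4.3.3 (lmFit, eBayes with trend; 6 residual and 7.55 prior degrees of freedom) on log2(value + 1). The added 1 is 3.58 CPM and lowers the change of low genes. A single fit with 6 group means took in the 12 libraries and the 10751 genes whose mean reached 1 deposited unit, with Benjamini-Hochberg adjustment in each comparison and a threshold of 0.05. EdgeR 4.0.16 and DESeq2 1.42.0 on the recovered reads, other scalings, filters and pseudocounts, and left-out libraries were alternatives. The limma and edgeR fits were also run on simulated reads, drawn independently for each library. That run does not cover libraries that deviate together, as same-numbered libraries do here. Early blastocyst library 1 or 2 alone in Tdgf1 siRNA embryos and edgeR with a replicate block were added after seeing the data.

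Libraries of a group differed by more than read sampling (chi-square per gene 17.0 to 41.1), so none were merged. Same-numbered libraries of the 2 arms deviated together from their group means, with correlations of 0.458 in morulae, 0.593 in early and 0.101 in late blastocysts, and were taken as pairs within a stage on that ground alone, since the labels do not explain the numbers. The members, the 53 pathway genes and the markers were chosen with earlier results of these data known. The rule took all 10 members, whose stage changes and siRNA differences are all plotted and given in the text where the results turn on them, and of the pathway genes the 6 largest called changes of each step in controls. Pathway genes named by role over the whole span were chosen after their values were seen. Some genes that these rules name are not reported here. Gene positions are from GENCODE M21 (GRCm38) and promoters from RefSeq. Python 3.11.15, numpy 2.4.6, pandas 2.3.3 and matplotlib 3.10.9 made the tables and plots.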

Additional observations from a re-analysis of the deposited data

Results flagged for a closer look

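The siRNA difference of Tet1 took opposite directions at the ends of the series. In morulae both Tdgf1 siRNA libraries (76.1 and 75.8 CPM) lay below both control libraries (82.5 and 106 CPM), a log2 difference of -0.29 with a 95% interval of -0.67 to 0.10. In late blastocysts both Tdgf1 siRNA libraries (123 and 121 CPM) lay above both control libraries (109 and 96.6 CPM), a log2 difference of 0.24 with an interval of -0.14 to 0.63. The F test of whether the Tet1 difference varied by stage did not pass (F = 2.3, limma unadjusted p = 0.138, adjusted p = 1).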

How the results depend on the processing

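Each count of members called is followed by the share of all genes called in the same setting. From morula to early blastocyst in Tdgf1 siRNA embryos 2 members were called (15.4%), against 4 with early blastocyst library 1 alone (15.8%) and 1 with no filter (2.12%). In controls it was 2 (15.8%), against 5 with both arms averaged (33.7%), 4 with early blastocyst library 1 alone (19.3%), 0 with library 2 alone (5.1%) and 0 with no filter (1.42%). From early to late blastocyst in controls it was 5 (27.7%), against 3 with a pseudocount of 0.1 deposited units (26.1%), 3 after quantile normalization (28.5%), 3 after TMM scaling (28.1%), 3 in edgeR (26.3%), 2 with early blastocyst library 1 alone (14.7%) and 0 with no filter (6.5%). From morula to late blastocyst in controls it was 5 (48.2%), against 8 with both arms averaged (60.9%). Leaving out 1 library, the counts for early blastocyst minus morula ran from 1 to 2 in Tdgf1 siRNA embryos (4.97 to 12.3%) and from 0 to 3 in controls (2.73 to 15.6%). For late minus early blastocyst they ran from 0 to 3 (9.02 to 23.4%) and from 0 to 4 (11.3 to 26.2%) in that order, and for late blastocyst minus morula from 4 to 6 (30.1 to 34.6%) and from 4 to 5 (35.4 to 38.9%). With no filter 32486 genes were fitted and tested in place of 10751. The cause of the moved counts was not tested in any setting. Every siRNA count of members stayed at 0 in the alternatives run, the replicate block (stage-and-number pairs) included, which gave 0. With n = 2 the siRNA comparisons rest on 6 residual degrees of freedom.

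Every change of direction over the alternatives was of a change that had not passed the threshold, and its cause was not tested. For early blastocyst minus morula in controls these were Tet3 0.01 (early blastocyst library 1 alone). For late minus early blastocyst in controls these were Dnmt1 -0.13 (quantile normalization), -0.09 (TMM scaling), -0.04 (edgeR), -0.03 (DESeq2) and -0.12 (early blastocyst library 1 alone), Tet1 0.02 (both arms averaged), 0.02 (pair means as replicate block) and 0.13 (early blastocyst library 2 alone), Trim28 0.08 (quantile normalization) and 0.07 (early blastocyst library 2 alone). For late blastocyst minus morula in controls these were Tet1 -0.05 (TMM scaling), -0.02 (edgeR) and -0.03 (DESeq2), Tet2 0.04 (both arms averaged) and 0.04 (pair means as replicate block). For early blastocyst minus morula in Tdgf1 siRNA embryos these were Dnmt3b -0.06 (early blastocyst library 2 alone). For late minus early blastocyst in Tdgf1 siRNA embryos these were Tet1 -0.08 (TMM scaling) and -0.01 (early blastocyst library 1 alone), Tet2 0.06 (early blastocyst library 2 alone), Trim28 0.07 (quantile normalization) and 0.06 (early blastocyst library 1 alone). For late blastocyst minus morula in Tdgf1 siRNA embryos these were Dnmt3a -0.05 (quantile normalization), -0.08 (TMM scaling), -0.02 (edgeR) and -0.04 (DESeq2), Tet2 -0.08 (TMM scaling), -0.04 (edgeR) and -0.06 (DESeq2). For Tdgf1 siRNA minus control averaged over stages these were Dnmt1 -0.01 (TMM scaling), -0.01 (edgeR), -0.02 (DESeq2), -0.01 (edgeR with the replicate block) and -0.01 (early blastocyst library 1 alone), Dnmt3b -0.03 (early blastocyst library 1 alone), Tet1 -0.02 (TMM scaling), -0.01 (edgeR), -0.02 (DESeq2), -0.01 (edgeR with the replicate block) and -0.02 (early blastocyst library 1 alone), Zfp57 -0.16 (early blastocyst library 1 alone).

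Ranges over the libraries left out 1 at a time follow for the uncalled log2 changes whose sign turned. In early blastocyst minus morula in controls the range was Tet3 -0.41 to 0.01. In late minus early blastocyst in controls the range was Dnmt1 -0.12 to 0.22, Tet1 -0.26 to 0.13 and Trim28 -0.22 to 0.16. In late blastocyst minus morula in controls the range was Tet1 -0.04 to 0.30 and Tet2 -0.28 to 0.25. In early blastocyst minus morula in Tdgf1 siRNA embryos the range was Dnmt3a -0.36 to 0.01, Dnmt3b -0.06 to 0.61 and Dnmt3l -0.34 to 0.11. In late minus early blastocyst in Tdgf1 siRNA embryos the range was Dnmt3a -0.01 to 0.56, Tet1 -0.01 to 0.23, Tet2 -0.74 to 0.06 and Trim28 -0.16 to 0.10. In late blastocyst minus morula in Tdgf1 siRNA embryos the range was Dnmt3a -0.19 to 0.39 and Tet2 -0.01 to 0.21. In Tdgf1 siRNA minus control in morulae the range was Dnmt1 -0.32 to 0.12, Dnmt3a -0.30 to 0.16, Dnmt3l -0.16 to 0.29, Tet2 -0.20 to 0.33, Tet3 -0.15 to 0.08 and Zfp57 -0.02 to 0.65. In Tdgf1 siRNA minus control in early blastocysts the range was Dnmt1 -0.32 to 0.03, Dnmt3a -0.24 to 0.32, Dnmt3b -0.58 to 0.47, Tet1 -0.13 to 0.26, Tet2 -0.46 to 0.34, Tet3 -0.46 to 0.11, Zfp57 -0.25 to 0.64 and Trim28 -0.11 to 0.09. In Tdgf1 siRNA minus control in late blastocysts the range was Dnmt3a -0.53 to 0.04, Dnmt3b -0.28 to 0.20, Dnmt3l -0.12 to 0.10, Uhrf1 -0.09 to 0.48, Tet3 -0.02 to 0.29 and Trim28 -0.20 to 0.18. In Tdgf1 siRNA minus control averaged over stages the range was Dnmt1 -0.07 to 0.08, Dnmt3b -0.14 to 0.21, Dnmt3l -0.12 to 0.02, Tet1 -0.06 to 0.07, Tet2 -0.07 to 0.20, Tet3 -0.12 to 0.07, Zfp57 -0.11 to 0.19 and Trim28 -0.11 to 0.02.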
